A study of Mus musculus with 11 samples.

Results

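The shared promoter regions are stretches of mouse chromatin that carried a called peak of H3K27ac, acetylation of histone H3 at lysine 27, in each of 8 stomach gland libraries and that lay close to a protein-coding gene. They were selected on the measured peaks themselves: the peaks of the 8 H3K27ac lists on chromosomes 1 to 19 and X were merged, and a merged region was kept where it overlapped a peak of all 8 lists by at least 1 bp and had an end of a protein-coding gene (RefSeq, GRCm38.p6) within 2.5 kb. This gave 2746 regions of 45788 merged regions in all (6.0%), and 3210 of the 21631 protein-coding genes had an end near 1 of them, a background of 14.8%. Because H3K27ac chose the regions, every H3K27ac value given here for them is a description without a test.

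The libraries came from stomach glands of mice of 4 genotypes, with 2 H3K27ac libraries each and, for 3 of the groups, 1 library of H3K4me3, trimethylation of histone H3 at lysine 4. The wild-type group (WT) carried no transgene named in the labels. The NICD group was Atp4bCre; Rosa26NICD, in which Cre recombinase under the promoter of the parietal cell gene Atp4b switches on the Notch1 intracellular domain from the Rosa26 locus. The 1-allele group was Atp4bCre; Rosa26NICD; Arid1aflox/+ and the 2-allele group Atp4bCre; Rosa26NICD; Arid1aflox/flox, so that all groups but the wild type shared the Cre and active Notch1. Arid1a codes for an ARID-domain subunit of the BAF form of the SWI/SNF chromatin remodeller. The third H3K4me3 library is titled as heterozygous but its genotype field reads Arid1aflox/flox, and it is called Arid1a-floxed here. Fixed epithelial pellets were pooled before the immunoprecipitation, so the spread between libraries may be partly technical, and the ages of the mice are not given in the sources used here. The antibody that the protocol names is against H3K27ac, for the H3K4me3 libraries too. The Cre acts in cells that express Atp4b, and what share of the glands' cells had recombined is not given, so a peak can come from recombined or unrecombined cells.

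H3K27ac is placed by the acetyltransferases p300 and CBP and marks active promoters and enhancers, whereas H3K4me3 marks promoters at which transcription starts. At an active promoter the start site itself is kept free of nucleosomes, and the modified nucleosomes flank it, most strongly on the downstream side. Promoters active in nearly every cell type usually lie in CpG islands, stretches rich in C and G in which CpG dinucleotides have been kept, whereas many promoters of tissue-specific genes are poor in CpG and some hold a TATA box.

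The promoters of the strongest shared regions show this sequence type, and the 7 printed here belong to the strongest regions (by mean percentile over the 6 scored libraries, explained below with the values) that had a RefSeq promoter at the named gene. Each is the 250 bases before the RefSeq start site, read 5′ to 3′ in the direction of the gene, in lower case, with every match to the 13 motifs listed after them in capitals. Olfr1, an olfactory receptor gene with no H3K27ac region in any library, is shown for contrast.
Eif1: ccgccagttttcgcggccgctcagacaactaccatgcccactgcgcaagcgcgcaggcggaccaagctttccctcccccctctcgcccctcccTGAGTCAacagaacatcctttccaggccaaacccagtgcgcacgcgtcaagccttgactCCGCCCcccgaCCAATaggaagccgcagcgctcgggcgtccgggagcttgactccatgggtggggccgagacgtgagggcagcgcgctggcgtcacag
Pnrc1: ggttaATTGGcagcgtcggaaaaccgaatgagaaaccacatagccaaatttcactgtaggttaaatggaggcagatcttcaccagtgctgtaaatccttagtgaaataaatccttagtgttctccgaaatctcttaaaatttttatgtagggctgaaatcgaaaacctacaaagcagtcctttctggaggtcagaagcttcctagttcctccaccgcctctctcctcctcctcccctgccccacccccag
Bcl2l13: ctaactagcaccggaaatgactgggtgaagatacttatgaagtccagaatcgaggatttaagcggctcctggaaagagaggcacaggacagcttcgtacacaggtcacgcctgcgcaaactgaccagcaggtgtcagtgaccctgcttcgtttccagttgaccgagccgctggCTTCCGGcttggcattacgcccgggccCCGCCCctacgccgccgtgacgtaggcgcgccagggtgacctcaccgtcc
Klf7: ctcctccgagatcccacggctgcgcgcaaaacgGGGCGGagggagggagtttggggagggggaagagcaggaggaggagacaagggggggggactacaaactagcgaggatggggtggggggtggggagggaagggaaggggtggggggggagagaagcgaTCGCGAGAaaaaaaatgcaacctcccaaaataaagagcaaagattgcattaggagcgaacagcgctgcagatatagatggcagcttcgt
Dazap2: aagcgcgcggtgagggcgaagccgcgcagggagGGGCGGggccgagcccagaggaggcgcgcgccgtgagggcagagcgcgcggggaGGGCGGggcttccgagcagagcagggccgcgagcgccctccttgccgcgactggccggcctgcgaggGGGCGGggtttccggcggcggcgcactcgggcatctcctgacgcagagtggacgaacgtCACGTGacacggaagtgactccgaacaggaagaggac
Arrdc3: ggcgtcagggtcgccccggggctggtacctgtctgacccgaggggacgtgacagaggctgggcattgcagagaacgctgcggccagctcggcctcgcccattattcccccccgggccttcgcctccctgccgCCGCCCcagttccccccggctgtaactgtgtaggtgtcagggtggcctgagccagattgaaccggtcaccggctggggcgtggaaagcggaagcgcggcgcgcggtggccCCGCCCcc
Klf11: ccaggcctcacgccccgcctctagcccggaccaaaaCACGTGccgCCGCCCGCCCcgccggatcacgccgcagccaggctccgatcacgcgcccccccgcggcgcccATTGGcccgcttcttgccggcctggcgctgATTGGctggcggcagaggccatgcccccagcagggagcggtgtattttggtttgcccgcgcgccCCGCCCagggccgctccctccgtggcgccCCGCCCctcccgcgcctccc
Olfr1: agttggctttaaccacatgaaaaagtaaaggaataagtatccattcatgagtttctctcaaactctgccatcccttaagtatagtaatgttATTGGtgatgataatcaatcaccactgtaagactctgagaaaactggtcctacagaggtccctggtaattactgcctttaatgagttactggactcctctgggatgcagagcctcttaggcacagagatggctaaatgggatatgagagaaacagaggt
On GRCm38.p6 the plus-strand promoters were Eif1 at chr11:100319699-100319948, Bcl2l13 at chr6:120835980-120836229, Dazap2 at chr15:100615412-100615661, Arrdc3 at chr13:80885845-80886094 and Klf11 at chr12:24651121-24651370. The minus-strand promoters were Pnrc1 at chr4:33248788-33249037 and Klf7 at chr1:64121390-64121639, and that of Olfr1 at chr11:73399496-73399745. The Dazap2 stretch held 36 CpG dinucleotides at 74.4% GC, Klf11 32 at 76.8%, Arrdc3 24 at 71.6%, Eif1 24 at 66.8%, Bcl2l13 20 at 60.0% and Klf7 13 at 59.2%. Pnrc1 stood apart with 6 CpG dinucleotides at 46.0% GC, and Olfr1 held none at 40.8%.

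Among all genes the same contrast held in composition. A RefSeq promoter (300 bases, from 250 before to 50 after the start) whose start lay within 2.5 kb of a shared region was found for 2384 of the 3210 genes. Where a gene had several starts, the start nearest a shared region was taken for these genes. The first listed start was taken in the other sets and in all promoters, so the choice of start differs between the sets compared here and below. Their median GC content was 64.3% with a median of 25 CpG dinucleotides, against 60.0% and 19 for genes whose H3K27ac regions were called in 1 to 7 libraries and 48.3% and 3 for genes with no region in any library. CpG-rich promoters, defined as over 50% GC with an observed-to-expected CpG ratio over 0.6, made up 83.3% of the promoters at shared regions, 61.9% of those with a region in 1 to 7 libraries, 15.5% of those with none and 46.0% of all 17274 promoters.

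The motif letters, searched on both strands, followed the composition for the most part. GGGCGG, bound by Sp and Klf factors, was present in 72.8% of the promoters at shared regions and 46.9% of all promoters, but in 78.4% and 77.0% when only CpG-rich promoters were compared, a comparison chosen after seeing the data. CCGGAAG (Ets factors) was present in 21.5% and 12% (23.2% and 20.2% among CpG-rich promoters), GCGCATGC (Nrf1) in 6.88% and 3.64%, AAGATGGC (Yy1) in 5.62% and 3.25%, TGACGTCA (Creb) in 3.69% and 2.37% and CACGTG (the E-box) in 11.5% and 7.99%. Other letters were less frequent at shared regions than in all promoters. The core-promoter box TATAAA was present in 5.91% and 13.4%. AGATAA, bound by the Gata family of factors, stood at 4.11% and 10.0%. TGANTCA, the letters of AP-1 dimers, stood at 3.86% and 7.14%, and CCAAT, those of Nfy, at 34.6% and 39.4%. TGGGAA, the core bound by the Notch cofactor Rbpj, stood at 20.9% and 24.2%. Within CpG-rich promoters the TATA letters stood at 4.73% and 4.78% and the Rbpj letters at 19.1% and 19.6%. The other gaps narrowed there too: Gata stood at 2.92% and 3.55%, AP-1 at 2.97% and 3.21% and Nfy at 34.0% and 37.2%. For the more frequent letters the CpG-rich values were 7.45% and 6.53% (Nrf1), 5.99% and 5.15% (Yy1), 4.23% and 3.95% (Creb) and 11.9% and 11.7% (E-box). Some motifs can overlap in 1 stretch, as 2 GGGCGG matches do in the Klf11 promoter, and a match describes letters and not a bound factor.

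TCTCGCGA, letters of an element that the factor Banp binds at CpG-island promoters, kept a larger gap. It was present in 4.19% of the promoters at shared regions and 1.53% of all promoters, and in 4.88% and 3.0% of the CpG-rich ones. The reverse shares use the first listed start of every gene. Read this way, 101 of the 265 genes with these letters in their promoter had a shared region (38.1%), against 13.8% of all genes with a RefSeq promoter. Among CpG-rich promoters it was 97 of 239 (40.6%) against 24.5%. ACAATTCC, letters of the Znf143 and Thap11 element, showed 31 of 80 (38.8%) among CpG-rich promoters and 40 of 208 (19.2%) among all. These shares are descriptions of the gene set and were not tested. The matches to TCTCGCGA lay near the start: of 116 matches in the promoters of the 101 genes, 86 (74.1%) lay within 150 bases before it, and the median position was 45 bases before it. Besides Klf7, the strongest shared regions with a whole match before the start are shown here with 16 bases on each side, in the direction of the gene, the match in capitals.
Rasa2: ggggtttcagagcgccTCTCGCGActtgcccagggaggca
Vps4b: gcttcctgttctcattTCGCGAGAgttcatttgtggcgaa
Rbm39: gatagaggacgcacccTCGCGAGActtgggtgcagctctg
Cip2a: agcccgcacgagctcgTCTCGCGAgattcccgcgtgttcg
Ints13: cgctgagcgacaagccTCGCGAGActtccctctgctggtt
These lie on GRCm38.p6 at chr9:96631656-96631695 (minus strand), chr1:106796733-106796772 (minus), chr2:156180398-156180437 (minus), chr16:48993944-48993983 (plus) and chr6:146577899-146577938 (minus). Rasa2 encodes a Ras GTPase-activating protein, Vps4b an ATPase of membrane scission, Rbm39 a splicing factor, Cip2a an inhibitor of the phosphatase PP2A and Ints13 a subunit of the Integrator complex. The matches lay 27 bases before the start in Vps4b, 83 in Ints13, 172 in Rasa2, 179 in Rbm39 and 224 in Cip2a. In H3K27ac strength the median mean percentile was 79.7 for regions with the letters and 78.5 for those without.

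Promoter regions were the bulk of what all libraries shared. Of 3274 regions called in all 8 libraries, 2746 (83.9%) had a gene end within 2.5 kb, whereas of the regions called in 1 library 3849 had one and 16170 did not. The number of promoter regions was lowest at 3 libraries (1273) and 4 libraries (1278) and rose to 2212 at 6, 2627 at 7 and 2746 at 8, whereas distal regions fell steadily from 16170 to 528.

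**Figure D1:**
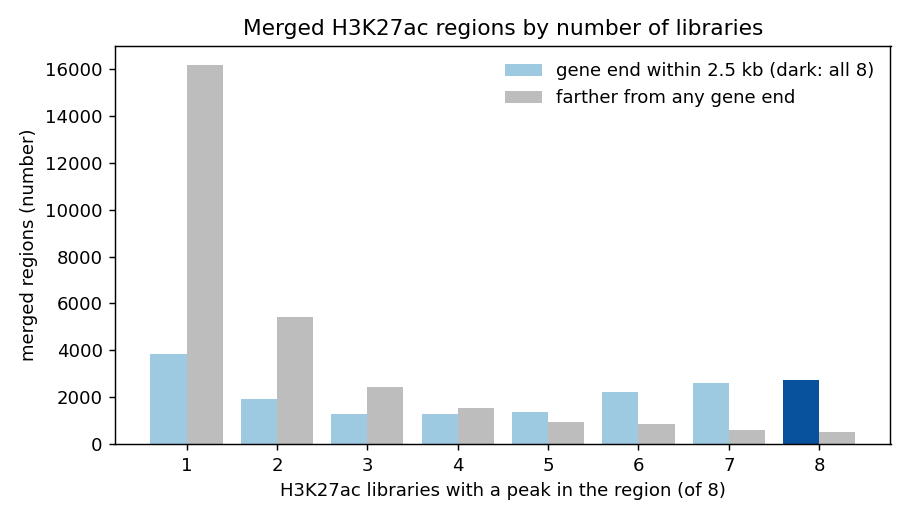
Number of merged H3K27ac regions (y axis) called in 1 to 8 libraries (x axis), with blue bars for regions with a gene end within 2.5 kb and grey bars for regions farther away. The dark bar is the set described here, 2746 regions, beside 528 distal regions called in all 8.

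The size of the set was fixed by the 1-allele lists, the shortest of the 8 with 5148 and 7594 peaks against 14364 to 41380 in the others. Of the 2627 promoter regions called in 7 libraries, 2102 lacked 1-allele replicate 1 and 485 lacked 1-allele replicate 2, whereas no other library was the missing one for more than 22. Without 1-allele replicate 1 the rule would keep 4848 regions and 5621 genes, and without both 1-allele libraries, a choice made after seeing the data, 7139 regions and 7973 genes. Sequencing depth did not order the lists: 1-allele replicate 1 had 16.6 M filtered tags and replicate 2 had 9.76 M, and the other 4 H3K27ac libraries with a header had 7.96 to 18.3 M. The share of redundant reads was 0.52 in NICD replicate 2, the highest, and 0.10 to 0.31 in the others. The part of these library differences in the results was not tested.

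Among the 7138 promoter regions with a peak in all 6 other libraries, the 1-allele lists kept the stronger ones. The 2746 regions called in both 1-allele libraries had median fold enrichments of 7.31 and 6.99 in the WT libraries and 9.67 and 8.46 in the NICD libraries. The 2587 called in 1 of the 1-allele libraries had 6.2 and 5.91, then 8.77 and 7.32, and the 1805 called in neither had 5.35 and 5.15, then 7.46 and 6.27. The order of the 3 sets was thus the same in each of these 4 libraries.

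The shared regions were short, and most held a gene end. Their width, which is that of the union of the peaks of all libraries, ran from 231 to 2581 bp with a median of 960 bp, against 855 bp for promoter regions called in 7 libraries and 908.5 bp for distal regions called in all 8. A gene end lay inside the region in 1730 of 2746 (63.0%), and it lay over 1 kb away in 132 (4.81%). An end here is either the start or the far end of a gene, so not every region is a promoter. No RefSeq start in the promoter set lay within 2.5 kb of 585 of the 2746 regions (21.3%). Counting RefSeq starts alone, 11.8% of all protein-coding genes had a shared region. A single gene had an end within 2.5 kb of 2219 regions, 2 genes of 498 and 3 or more genes of 29. Their genes had a median length of 30.0 kb, against 17.3 kb for all protein-coding genes. Divergent neighbours, whose start lies within 1 kb of a start on the other strand pointing away, were more frequent among them (378 of 2384 genes, 15.9%) than among all genes with a RefSeq start (1483 of 17274, 8.59%). Part of this excess can follow from the rule, as such a gene also counts through a region at its neighbour's start. The size of that part was not tested. The 3 widest regions lay at Rps6ka1, a growth factor-activated kinase (2581 bp), Cux1, a homeodomain factor (2448 bp), and Zfp827, a zinc finger protein (2301 bp). None of the 3 was among the strongest, with mean percentiles of 62.9, 72.3 and 86.5.

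Chromosome X held few of them. It carried 27 shared regions, near 29 of its 966 genes (3.0%), and 5.64% of its promoter regions were shared ones. On the autosomes the share of genes ran from 9.7% on chromosome 7 to 21.3% on chromosome 18.

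The limit of 2.5 kb cut through similar regions. Just inside it lay regions near Nudt19 (2442 bp away), Zfp423 (2447 bp) and Rusc1 (2467 bp), and just outside it regions near Xpo4 (2532 bp), Stx3 (2540 bp) and Vopp1 (2546 bp), all called in all 8 libraries. In WT replicate 1 their percentiles were 96.7, 89.0 and 87.7 inside and 59.5, 90.2 and 98.9 outside, and all 6 had an H3K4me3 peak in the WT and NICD libraries.

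Strength was read inside each library's own list, as the percentile of the region's strongest peak by the authors' −log10 p. The lists of the 2-allele libraries carry no scores, so 6 libraries have one. Because the lists differ in length, a percentile in one list cannot be set against that in another to show a change. The median percentile of the shared regions was 88.5 and 86.9 in the WT libraries, 94.9 and 90.8 in the NICD libraries, and 56.0 and 68.0 in the 1-allele libraries. The regions thus filled the upper end of the long lists and a larger part of the short 1-allele lists: 57.9% and 40.3% of the 1-allele peaks lay in them, against 7.24% to 21.6% of the other lists. The authors' fold enrichment had medians of 7.31, 6.99, 9.67, 8.46, 5.36 and 5.66 in these 6 libraries, beside 4.90 to 5.35 over the whole lists.

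**Figure D2:**
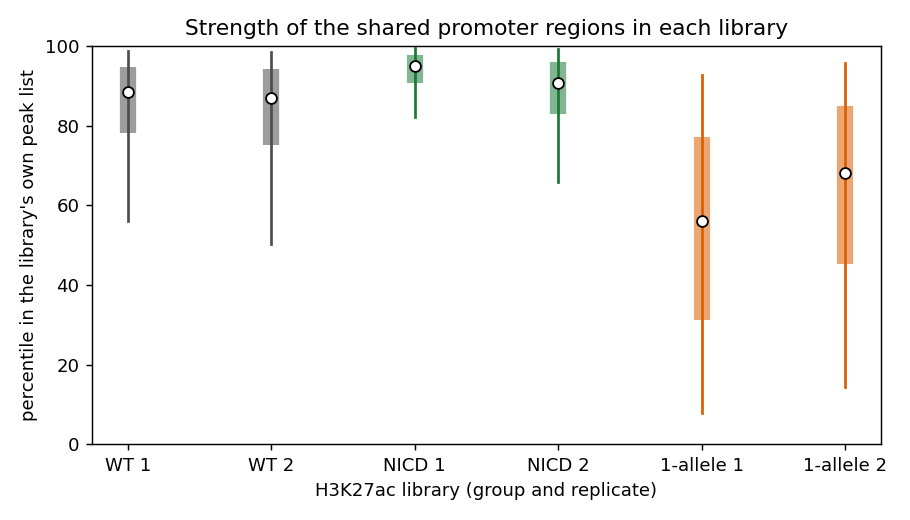
Percentile of the strongest peak of each shared promoter region within the library's own peak list (y axis, 100 is the strongest) for the 6 scored libraries (x axis); thin lines run from the 5th to the 95th percentile of the 2746 regions, thick bars span the quartiles and circles are medians. The medians lie between 86.9 and 94.9 in the WT and NICD libraries and at 56.0 and 68.0 in the 1-allele libraries.

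Coverage in base pairs can be read in all 8 libraries. The called peaks covered a median of 542.5 and 554.5 bp of a shared region in WT, 897 and 711 bp in NICD, 280 and 434.5 bp in 1-allele and 732.5 and 711 bp in 2-allele libraries. The 2-allele and NICD values overlapped, and both 1-allele values were below all others. In the WT libraries 30.7% and 25.9% of the regions held at least 2 separate peaks, against 8.52% to 20.3% in the other 6.

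The strongest shared region lay 618 bp from an end of Wls, the carrier of Wnt proteins to the cell surface, at chr3:159939284-159939832. Its fold enrichment was 23.4 and 25.4 in WT, 18.4 and 19.3 in NICD and 25 and 22.4 in 1-allele libraries. These were the highest values of any shared region in each scored library except NICD replicate 1, and the 1-allele values lay above those of NICD, without overlap. The pileup at the summit was 75 and 100 in WT, 74 and 64 in NICD and 132 and 109 in 1-allele libraries. No RefSeq start of Wls in the promoter set lay within 2.5 kb, so the region is not shown to be a promoter. The lists were called without a control library, and the source of this signal and of its difference was not tested. The next strongest region was the promoter of Eif1, a factor of start codon selection. Its fold enrichments were 15.2 and 14.0 in WT, 17.1 and 17.3 in NICD and 12.8 and 11.6 in 1-allele libraries. Here the 1-allele values were the lowest, the NICD values were the highest and the groups did not overlap. The median fold enrichments over all shared regions, given above, had this order too.

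The other 10 of the 12 strongest lay at Efcab2, Pnrc1, Sirt4, Bcl2l13, Vamp3, Klf7, Dazap2, Arrdc3, Klf11 and Ctso, with mean percentiles from 99.4 down to 98.6. Bcl2l13 encodes a mitochondrial Bcl2 family protein, Sirt4 a mitochondrial sirtuin, Vamp3 a SNARE of vesicle fusion, Klf7 and Klf11 Krüppel-like zinc finger factors, and Ctso the protease cathepsin O. The Sirt4 region also lay near Pxn, which encodes the focal adhesion protein paxillin. Of the 2746 regions, 109 (3.97%) were in the top 10% of all 6 scored lists, and none was in the lower 50% of all 6.

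The regions kept much of their order from library to library. Over the 2746 regions, Spearman's rho of the percentiles was 0.62 between the WT libraries, 0.74 between the NICD libraries and 0.36 between the 1-allele libraries, and 0.42 to 0.61 between libraries of different groups. These values describe the order across regions, which are not independent replicates. The 1-allele pair were less like each other than either was to any WT or NICD library.

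To set the groups side by side, each region was ranked among the 2746 in each library, a scale chosen after seeing the data, where 100 is the strongest. Both NICD ranks were above both WT ranks at 574 regions (20.9%) and below them at 576 (21.0%). Over all 3274 regions called in all 8 libraries, ranked in the same way, the shares were 22.4% and 21.1%. Both 1-allele ranks were above both NICD ranks at 597 regions (21.7%) and below them at 514 (18.7%), beside 21.7% and 20.3% over all 3274. The 2746 regions make up 83.9% of the 3274, so the shares of the wider set had to lie near theirs and are no separate comparison. The shares among the distal regions alone were not counted. The comparison of NICD with WT and that of 1-allele with NICD use the same NICD libraries.

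The regions with the largest differences are named as examples. Rpl22l1, a ribosomal protein paralog, ranked 14.2 and 18.2 in WT and 86.6 and 90.5 in NICD libraries. Acsl3, a long-chain acyl-CoA synthetase, ranked 17.0 and 4.57, then 81.9 and 83.0, and Usp48, Pla2g6 and Paip2 followed in the same direction. Ranks went the other way at Rtraf, an RNA-binding protein of the tRNA ligase complex, with 87.1 and 54.1 in WT and 1.22 and 3.82 in NICD. Hmgcs1, an enzyme of cholesterol synthesis, ranked 70.6 and 76.6, then 9.74 and 3.28, and Pdk2, which inhibits pyruvate dehydrogenase, 83.3 and 68.0, then 7.23 and 9.09. Commd2 and Aldh6a1 were the others of the 5 lowest.

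Between the 1-allele and NICD libraries, the largest difference with higher 1-allele ranks was at 2 regions of the predicted gene Gm32584. That at chr5:36660831-36661387 ranked 0.091 and 1.66 in NICD, 99.7 and 91.5 in 1-allele and 54.3 and 73.1 in WT libraries, so the NICD values were the low ones. H3K4me3 had the same pattern there, with list percentiles of 98.1 in WT, 6.91 in NICD and 97.9 in the floxed library. At the other Gm32584 region they were 98.5, 0.0737 and 97.7. The difference is thus not particular to H3K27ac, and its source was not tested. Bhlhe40, a circadian basic helix-loop-helix repressor, ranked 4.39 and 5.37 in NICD and 82.4 and 76.7 in 1-allele libraries, and Ten1 and Gm17660 were the others. Lower ranks in the 1-allele libraries were largest at Snx4, a sorting nexin of endosomes, with 83.8 and 92.8 in NICD and 0.291 and 4.81 in 1-allele libraries. Cwc27, a spliceosomal isomerase, ranked 91.1 and 91.2, then 18.8 and 17.1, and Brpf1, Atp6v0c and Wsb1 followed. Ranked in the whole lists, Prpf19, Rdx, Commd8 and Wdr36 were among the highest in NICD against WT, and Gm32584, Commd2, Rtraf, Arnt and Hmgcs1 were the lowest. On that scale Apool joined Gm32584, Gm17660 and Bhlhe40 as higher in 1-allele than in NICD libraries, and Snx4, Zc3h15, Twf1, Pcgf3 and Tex264 were lowest. List length moves the whole-list values, so they show no change.

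Summits fell just downstream of the start site in every scored library. For the 1642 shared regions with a single RefSeq start of 1 gene, the strongest summit was downstream of the start in 84.2% to 85.6% of regions. The median position was 202 and 210 bp downstream in WT, 216 and 215 bp in NICD, and 230 and 233 bp in 1-allele libraries. Between 71.7% and 75.6% of summits lay 100 to 500 bp downstream, against 9.68% to 10.9% at the same distance upstream. The medians of the 3 groups did not overlap, but their whole range was narrower than the median distance between the summits of the same region in a pair of libraries, which was 40 to 73 bp.

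**Figure D3:**
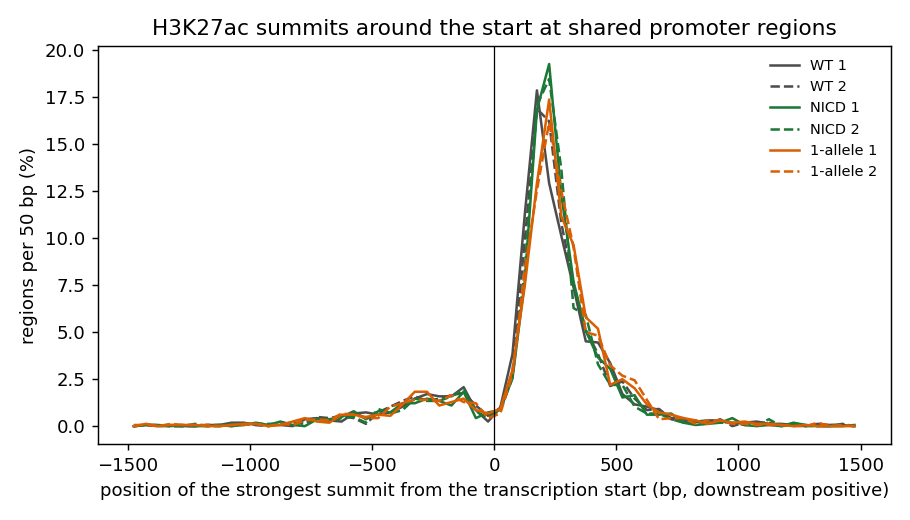
Share of the 1642 regions (y axis, % per 50 bp) by the position of the strongest H3K27ac summit from the RefSeq start (x axis, bp, downstream positive), 1 line per scored library. All 6 lines peak between 100 and 500 bp downstream, dip at the start itself and have a small shoulder upstream.

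H3K4me3, which the rule did not use, was called at nearly all shared regions in 2 of its 3 libraries. A peak overlapped 2705 of 2746 regions in the WT library (98.5%), 2743 in the NICD library (99.9%) and 1530 in the Arid1a-floxed library (55.7%). Over all 17278 promoter regions the shares were 61.3%, 86.5% and 23.1%, and in those called in 1 to 7 H3K27ac libraries 54.3%, 84.0% and 17.0%. The floxed library had 5157 peaks in all against 17522 and 39360 in the WT and NICD libraries. With 1 library per genotype the groups were not tested against each other.

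**Figure D4:**
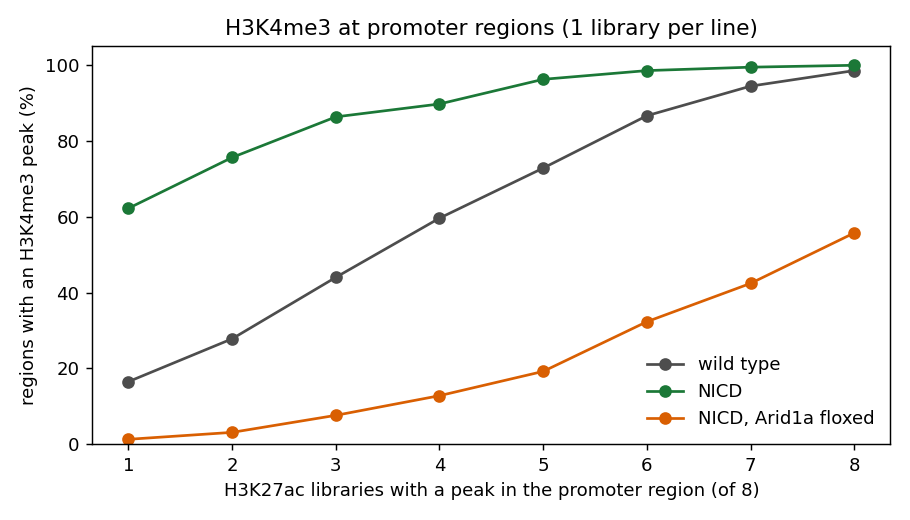
Share of promoter regions with an H3K4me3 peak (y axis, %) against the number of H3K27ac libraries in which the region was called (x axis), 1 line for each of the 3 H3K4me3 libraries. Each line rises from 1 to 8 libraries, from 16.5% to 98.5% in WT, 62.2% to 99.9% in NICD and 1.3% to 55.7% in the Arid1a-floxed library.

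The excess of the shared regions over the other promoter regions was 44.2, 15.9 and 38.8 percentage points in the WT, NICD and floxed libraries, a mean of 33.0 ± 15.0 (SD, n = 3). It was positive in 3 of 3 libraries (exact two-sided sign-flip permutation test, p = 0.25, Benjamini-Hochberg adjusted p = 0.25 over 3 measures), and 0.25 is the smallest p that 3 libraries allow. The median percentile of the strongest overlapping H3K4me3 peak in its list was also higher, by 14.1 ± 7.63 points (SD, n = 3). The summed length of all H3K4me3 peaks overlapping a region had a median higher by 164 ± 116 bp (SD, n = 3). Both differences were positive in 3 of 3 libraries and had an exact permutation p = 0.25, adjusted p = 0.25. Shared regions were wider than the others (median 960 against 501 bp), which gives an overlap more room, and the part of width was not tested. Promoter regions called in 7 libraries, at 855 bp, stood at 94.4%, 99.4% and 42.4%, and the distal regions called in all 8, at 908.5 bp, at 89.0%, 97.9% and 45.5%.

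The regions with an H3K4me3 peak in the floxed library differed little from the rest in H3K27ac. Their median mean percentile was 79.6, and 76.6 for the 1216 without. By H3K27ac strength, the floxed peak was present at 59.2% of the strongest 687 regions and 48.0% of the weakest 687. H3K4me3 summits at the regions with 1 start lay a median of 257 bp downstream of it in WT, 247 bp in NICD and 325 bp in the floxed library.

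A peak of H3K4me3 was missing in the WT or NICD library at 42 shared regions, 41 of them in WT and 3 in NICD. Both lacked it at Bhlhe40 and Psapl1, and the NICD library alone at Txn1, which encodes thioredoxin. The 5 strongest regions lacking it in WT lay at Klf6, a Krüppel-like immediate-early factor, Wars2, a mitochondrial tryptophanyl-tRNA synthetase, Bcl6, a transcriptional repressor, Phf21a, a reader of unmethylated H3K4, and Bhlhe40. They are named after their values were seen. A WT peak often lay nearby: 26 of the 41 regions had a WT H3K4me3 peak within 2.5 kb, and the median distance to the nearest was 701 bp. Another shared region near the same gene was found for 11 of the 41, and in all 11 cases such a region carried the WT peak. At the chaperone gene Hsp90ab1, for example, the region without a peak lay 701 bp from one, and the other shared region of the gene had H3K4me3 in all 3 libraries. At Wars2 the nearest WT peak was 712842 bp away.

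Genes of basic cell functions lay farthest above the background. The lists below were written with earlier results of these data known and hold no test, and each share is to be read beside the 14.8% of all protein-coding genes. A shared region was present at 27 of 46 genes of splicing and RNA binding (58.7%), 26 of 48 of protein folding and secretion (54.2%), 12 of 20 of the ubiquitin system (60.0%), 16 of 35 translation factors (45.7%) and 27 of 60 of oxidative phosphorylation (45.0%). In the same order the strongest were Srsf6, an SR splicing factor (mean percentile 98.5), Arf4, a GTPase of Golgi traffic (98.4), Cul1, the SCF ubiquitin ligase scaffold (97.1), Eif1 (99.5) and Cox7c, a subunit of cytochrome oxidase (97.0). Others high in their lists were Srsf5, Hnrnpl and Hnrnpu, the coatomer gene Copb1, the stress factor Atf4, Arf1, the p53 ligase Mdm2, Usp22, Skp1, Eif4a2, Eif5, Eif3d, Uqcrfs1, Uqcrb and Atp5a1. The region of Hnrnpu lay nearer to Cox20 and that of Atp5a1 nearer to Haus1.

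**Figure D5:**
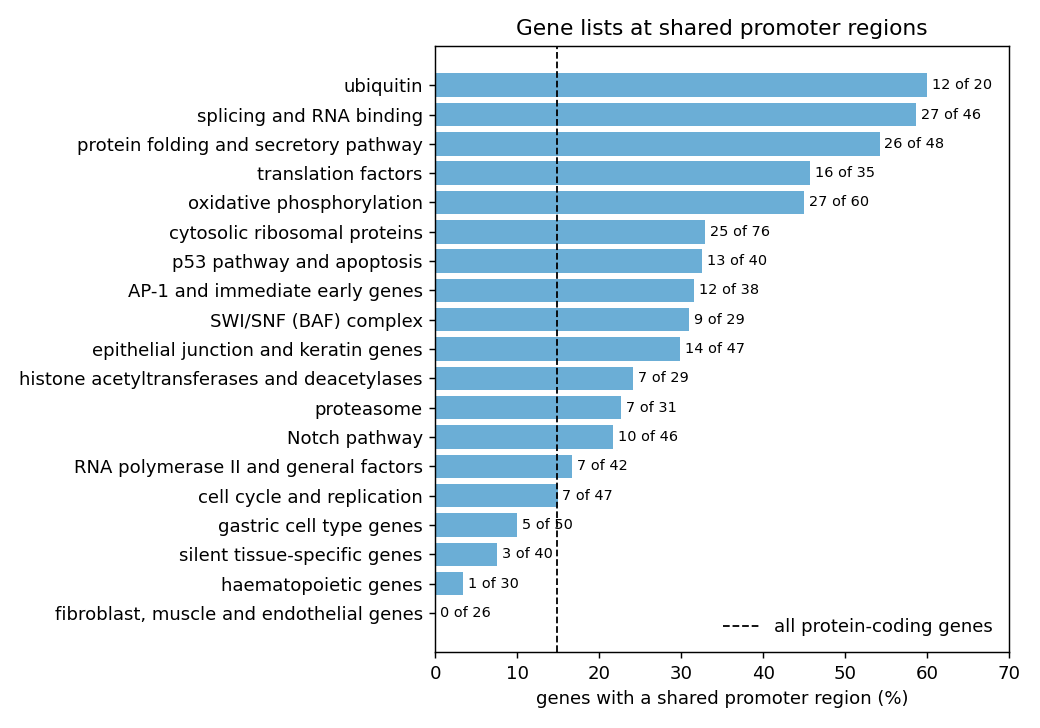
Share of the genes of each list with a shared promoter region within 2.5 kb (x axis, %), with the counts beside each bar and a dashed line at the 14.8% of all protein-coding genes. Lists of splicing, secretion, ubiquitin, translation and oxidative phosphorylation genes lie between 45.0% and 60.0%, and the 4 lists of marker genes for stomach, blood, stroma and other tissues at 0 to 10.0%.

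Ribosomal protein genes were covered less fully than these, at 25 of 76 (32.9%), led by Rpsa, Rpl21, Rps27 and Rpl17, but a further 24 were called in 7 libraries. Proteasome genes (7 of 31, 22.6%, led by Psmb2, Psmd11, Psma3 and Psmd14) and RNA polymerase II and general factor genes (7 of 42, 16.7%, among them Gtf2a2, Gtf2h1 and Polr2c) were near the background, with 10 and 17 more called in 7. Psmb2 shows the spread: its fold enrichment was 10.9 and 9.88 in WT, 13 and 10.6 in NICD and 5.82 and 10.3 in 1-allele libraries. The 1-allele pair differed from each other more than the WT pair did, and the higher of them overlapped the WT values. The counts of all lists but the fibroblast, muscle and endothelial one, which stayed at 0, grew when both 1-allele libraries were left out, together with the background, which became 36.9% of all genes. The ribosomal list then had 62 (81.6%), the proteasome list 26 (83.9%) and the polymerase and general factor list 32 (76.2%). The splicing, secretion, ubiquitin, translation and oxidative phosphorylation lists had 87.0%, 97.9%, 90.0%, 94.3% and 83.3%. With lists of equal length the background was 7.58%, these 5 lists stood at 37.0%, 37.5%, 50.0%, 31.4% and 30.0%, and the ribosomal, proteasome and polymerase lists at 14.5%, 16.1% and 7.14%.

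Counts were smaller for genes of growth control and stress. The p53 pathway and apoptosis list had 13 of 40 (32.5%), with Mdm2, Mcl1, Cflar and Ccng1 highest, and the AP-1 and immediate-early list had 12 of 38 (31.6%), with Klf6, Btg1, Dusp1 and Nfkbia highest. With lists of equal length the AP-1 and immediate-early list kept 3 of 38 (7.89%), near the background of 7.58% in that setting, and the p53 list 7 of 40 (17.5%). Cell cycle and replication genes were at the background with 7 of 47 (14.9%), led by Cdkn2b, an inhibitor of cyclin-dependent kinases (91.4), then Gmnn, Cdc25a and Foxm1 at 68.1 to 71.1. Genes of histone acetyltransferases and deacetylases had 7 of 29 (24.1%), among them Ep300, which encodes p300, at 94.9, Kat7 at 94.3, Hdac2 at 94.2 and Ncor1 at 87.2.

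Of the Notch pathway, 10 of 46 genes had a shared region (21.7%), and 10 more were called in 7 libraries. The ligand gene Jag1 was the strongest, with fold enrichments of 9.55 and 11.3 in WT, 8.02 and 9.67 in NICD and 6.92 and 6.64 in 1-allele libraries. Its 1-allele values were the lowest, and those of WT and NICD overlapped. Of the receptors only Notch2 was in the set, with 7.74 and 8.71, then 13.3 and 10.8, then 6.46 and 6.21, so that its NICD values were the highest. Over all shared regions, too, the median fold enrichment was highest in the NICD and lowest in the 1-allele libraries. Co-activators were Ep300 and Maml1 (77.3), the proteases that cleave the receptor were Adam10 (74.7) and Adam17 (60.3), the ubiquitin ligases Fbxw7 (78.5), Itch (72.1) and Dtx4 (77.1), and the glycosyltransferase Rfng (70.0), values being mean percentiles. Notch1 itself had a region called in 6 libraries, in neither 1-allele one.

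The SWI/SNF complex had 9 of 29 genes in the set (31.0%) and 11 more called in 7 libraries. Phf10, a subunit of the PBAF form, was highest with a mean percentile of 95.4, followed by Smarce1 (93.7) and Ss18 (93.5). Smarcd1 (85.8), Bcl7b (83.5), Brd9 (77.9), Bicra (75.2) and Arid2 (71.8, nearer to Gm38469) followed. Arid1b, the paralog of Arid1a, had the lowest mean percentile of the 9, 43.4, with fold enrichments of 3.12 and 3.08 in WT, 3.36 and 3.85 in NICD and 3.49 and 3.29 in 1-allele libraries. Arid1a was called in 7 libraries, all but 1-allele replicate 2.

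Of 47 epithelial junction and keratin genes 14 had a shared region (29.8%), and 5 had no region in any library. Counting RefSeq starts alone left 8 of 47 (17.0%), beside 11.8% of all genes. Well-known epithelial markers were among those outside the set: the E-cadherin gene Cdh1 and the keratin gene Krt18 had no region called in more than 6 libraries, Krt8 none in more than 5, Cldn7 none in more than 4 and Elf3 none in more than 2. Within the set Ctnna1, the alpha-catenin gene, was highest (95.7), followed by the integrin gene Itgb1 (92.6) and the desmosome gene Dsp (92.1). Others were the adhesion gene Epcam (81.7), the epithelial factor Grhl2 (81.3), Dsg2 (80.2), the tight junction gene Ocln (79.9), Itga6 (77.2), Spint2 (76.2), Ezr (76.0), Cldn12 (75.6), Klf5 (75.3) and the keratin gene Krt19 (61.4). Krt19 had fold enrichments of 3.62 and 2.96 in WT, 3.22 and 3.07 in NICD and 3.94 and 4.06 in 1-allele libraries, with the 1-allele values the highest.

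Of 50 gastric cell type genes 5 had a shared region (10.0%), below the background, 4 more were called in 7 libraries and 8 had no region in any library. With both 1-allele libraries left out 13 had one (26.0%), again below the share of all genes. The 5 were Car2, carbonic anhydrase (81.2), Esrra, a nuclear receptor of mitochondrial genes whose region lay nearer to Trmt112 (74.4), Foxq1, a factor of pit cell mucin expression (71.7), Hnf4a, an endodermal nuclear receptor (71.0), and Spdef, a factor of mucous secretory cells (69.9). Hnf4a had fold enrichments of 6.99 and 5.63 in WT, 10.6 and 9.41 in NICD and 4.15 and 4.69 in 1-allele libraries. The NICD values were the highest and the 1-allele values the lowest, without overlap. The medians over all shared regions had the same order, at 7.31 and 6.99 in WT, 9.67 and 8.46 in NICD and 5.36 and 5.66 in 1-allele libraries. The order is thus not particular to Hnf4a, and the share of regions that show it was not counted. Spdef stood at the 0.77 percentile in 1-allele replicate 2 and at 79.5 in replicate 1. Atp4b, the driver of the Cre, had no region called in more than 1 library: 3 separate regions near its ends were each called once, in WT replicate 1, WT replicate 2 and 1-allele replicate 1.

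Lists for other cell types were near absent. Of 30 haematopoietic genes 1 had a shared region (3.33%), the monocyte and macrophage gene Cd14, with percentiles of 42.5 to 79.9, and 22 had no region in any library. None of 26 fibroblast, muscle and endothelial genes had one, and 22 had no region. Of 40 genes picked as silent in stomach 3 had one (7.5%): Apoa2, where the region lay nearer to the mitochondrial import gene Tomm40l, the myelin gene Mbp and the keratin gene Krt1.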

How the data were processed

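Chromatin from mouse stomach glands was immunoprecipitated for H3K27ac (8 libraries, 4 groups of 2) or H3K4me3 (3 libraries, 1 per group) and read as 50 bp reads. Alignment with Bowtie2 to GRCm38/mm10 and peak calling with MACS2 are named in the submitters' processing notes, and MACS 2.0.10.20131216 stands in 9 lists per the file headers. Per the file headers, those lists were called without a control library at a q-value of 0.05, with 1 read kept per position, a 10 kb local background and an effective genome size of 2.7 Gb, the value for human. Each deposited list gives the pileup signal (coverage) at the summit, the fold enrichment (a ratio) and the significance as −log10 p and −log10 q, all made by the authors per library. The 2 lists of the 2-allele group hold positions without header or scores, and for them the sources used here name no calling settings.

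Peaks on chromosomes 1 to 19 and X were merged with Python 3.11.15, numpy 2.4.6 and pandas 2.3.3, and figures drawn with matplotlib 3.10.9. Overlap was 1 bp and the promoter window 2.5 kb from either end of a RefSeq gene. Strength was the percentile of the strongest overlapping peak by −log10 p. The interval, motif and sign-flip steps were checked on simulated data. The 780 list names all matched a RefSeq gene. The members and the 19 gene lists were chosen with earlier results of these data known. Named were the 12 strongest regions, the 5 largest differences in order in each direction, up to 4 genes per list by mean percentile, all genes of the gastric, epithelial, Notch and SWI/SNF lists, the 3 widest regions, and the regions nearest the 2.5 kb limit. Some genes that this rule names are not reported here. Alternatives were other windows, merging gaps, overlap rules, score limits, list lengths and left-out libraries. Filtered tags ran from 7.96 to 20.8 M in the 9 lists with a header. Lists of peaks carry no counts, so depth enters only through what was called.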

Additional observations from a re-analysis of the deposited data

How the results depend on the processing

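Left-out libraries moved the set through the 1-allele lists. Leaving out 1 library at a time gave 2737 (without NICD replicate 1) to 4848 regions (without 1-allele replicate 1) and 3192 to 5621 genes, with H3K4me3 shares of 97.0% to 98.5% in WT and 50.2% to 55.7% in the floxed library. Without both 1-allele libraries, a choice made after seeing the data, there were 7139 regions and 7973 genes, and the shares were 94.6% in WT, 99.5% in NICD and 45.6% in the floxed library. A −log10 q of at least 5 left 1534 regions and 1801 genes (57.9% in the floxed library), and lists of equal length 1367 and 1639 (99.5% in WT, 61.1% in the floxed library). The 2-allele lists, which hold no scores, were left whole under the score limit. For equal lengths they were cut in the order of the deposited list, which may not be an order of strength. Merging peaks up to 500 bp apart gave H3K4me3 shares of 99.3% in WT, 100% in NICD and 57.7% in the floxed library, and counting only H3K4me3 peaks with a −log10 q of at least 5 gave 95.6% in WT and 26.4% in the floxed library. The excess of H3K4me3 over other promoter regions ran from 11.6 points (lists of equal length) to 39.0 points (both 1-allele libraries left out) and was positive under every alternative run, with the exact permutation p at its floor of 0.25. Windows of 1 or 5 kb, a shared covered base and RefSeq starts alone kept the number of regions within 1.5 times. Of the values for single gene lists and motifs under the alternatives, 271 stayed close and 59 moved. No paired analysis was possible because each H3K4me3 group has 1 library, so the groups share fewer than 2 replicate numbers, and H3K27ac, which chose the regions, has no test that a block could enter. Shared and other regions were compared within each H3K4me3 library.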
